A study of Mus musculus with 16 samples.

Results

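The 36 genes described here encode the enzymes, carriers and thioesterases that burn fatty acids in mitochondria and peroxisomes. They were chosen by name as a pathway, with earlier results of these data known, and all 36 were measured, out of 18193 genes on the arrays. All 36 passed the filter on low values that left 12078 genes to be tested, for which 4 of the 16 arrays had to reach a log2 of 4. Acot3 passed it only through its 4 highest arrays. By the main site of the protein, 17 were counted as mitochondrial, 15 as peroxisomal, 3 (Crat, Eci2 and Amacr) as present in both and 1 (Acot1) as cytosolic.

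The RNA came from white adipose tissue of C57BL6/J mice, from a depot that the sources used here do not name. Each of 4 groups held 4 Affymetrix arrays. Animals fed a high fat diet were either SIRT1 knockouts (KO HFD) or wild type (WT HFD), and those fed a low fat diet were again SIRT1 knockouts (KO LFD) or wild type (WT LFD). Feeding began at an age of 4 weeks and lasted 8 weeks, so that the fat was taken at 12 weeks. The knockout mice carried a Cre recombinase driven by the FABP4 promoter, which is active in adipocytes and also in some macrophages, and the wild-type mice carried none. No group carried Cre with intact Sirt1, so the transgene is part of every genotype difference. Whether replicates are different mice is not in the labels, and p-values therefore describe the spread among these samples only, which may be technical. Values are GCRMA log2 expression of 1 probe set per gene, so that a difference of 1 is a doubling on the linear scale, and levels are compared between groups within a gene and never between genes.

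Fatty acids enter mitochondria as acyl-carnitines made by CPT1 on the outer membrane, pass the inner membrane through the carrier SLC25A20 and are returned to coenzyme A by CPT2. Each turn of beta-oxidation then takes an acyl-CoA dehydrogenase, a hydratase, a hydroxyacyl-CoA dehydrogenase and a thiolase, and the electrons taken by the dehydrogenases reach the respiratory chain through the electron transfer flavoprotein and its oxidoreductase ETFDH. Peroxisomes shorten very long, branched and dicarboxylic chains with an oxidase, a bifunctional enzyme and a thiolase of their own, and pass the shortened products on. Acyl-CoA thioesterases of the Acot family free fatty acids from coenzyme A in each compartment. Many of these genes are known targets of the nuclear receptor PPAR alpha, and SIRT1 is an NAD-dependent deacetylase with known effects on PPAR alpha and its coactivator PGC-1 alpha.

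The genes with the largest differences between groups included Acot1 to Acot4, which lie next to each other on chromosome 12, together with Ehhadh and Eci3, while Cpt1a was 1 of the few members that rose. Start regions are shown for the 4 Acot neighbours, for the 2 genes outside that stretch with the largest called differences, and for Cpt1a. RefSeq start regions on GRCm38.p6, each 300 bases from 250 before to 50 after the annotated start, were matched for 30 of the 36 members in 32 entries. They are chr12:83987611-83987910 for Acot2, chr12:84009252-84009551 for Acot1, chr12:84038129-84038428 for Acot4 and chr12:84051894-84052193 for 1 of 2 starts of Acot3, all on the plus strand. The others are chr16:21787785-21788084 (minus strand) for Ehhadh, chr13:34963760-34964059 (minus strand) for Eci3 and chr19:3323051-3323350 (plus strand) for Cpt1a. Capitals mark the hexamer AGGTCA on either strand (written TGACCT where it lies on the other strand) or, in Acot4, the longer match that contains it.
Acot2: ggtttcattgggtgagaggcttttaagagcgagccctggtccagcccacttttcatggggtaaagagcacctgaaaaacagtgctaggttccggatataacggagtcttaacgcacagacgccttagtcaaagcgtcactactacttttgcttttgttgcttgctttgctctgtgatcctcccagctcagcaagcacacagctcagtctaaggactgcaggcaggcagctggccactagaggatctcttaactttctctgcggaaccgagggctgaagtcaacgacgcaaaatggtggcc
Acot1: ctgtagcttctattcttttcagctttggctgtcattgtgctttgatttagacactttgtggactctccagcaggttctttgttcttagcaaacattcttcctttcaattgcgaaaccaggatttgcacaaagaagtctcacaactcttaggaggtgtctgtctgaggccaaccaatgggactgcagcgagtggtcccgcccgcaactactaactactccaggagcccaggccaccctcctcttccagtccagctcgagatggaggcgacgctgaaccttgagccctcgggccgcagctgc
Acot4: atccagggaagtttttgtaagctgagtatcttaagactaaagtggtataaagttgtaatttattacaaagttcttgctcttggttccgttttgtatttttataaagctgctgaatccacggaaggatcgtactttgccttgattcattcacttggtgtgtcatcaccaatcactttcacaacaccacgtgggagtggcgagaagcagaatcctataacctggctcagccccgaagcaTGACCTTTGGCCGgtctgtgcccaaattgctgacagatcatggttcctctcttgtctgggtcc
Acot3: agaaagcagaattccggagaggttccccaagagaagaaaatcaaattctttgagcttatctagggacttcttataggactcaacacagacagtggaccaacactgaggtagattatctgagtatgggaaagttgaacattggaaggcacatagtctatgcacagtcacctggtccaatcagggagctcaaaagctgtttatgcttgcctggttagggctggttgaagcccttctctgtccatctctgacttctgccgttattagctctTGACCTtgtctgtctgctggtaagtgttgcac
Ehhadh: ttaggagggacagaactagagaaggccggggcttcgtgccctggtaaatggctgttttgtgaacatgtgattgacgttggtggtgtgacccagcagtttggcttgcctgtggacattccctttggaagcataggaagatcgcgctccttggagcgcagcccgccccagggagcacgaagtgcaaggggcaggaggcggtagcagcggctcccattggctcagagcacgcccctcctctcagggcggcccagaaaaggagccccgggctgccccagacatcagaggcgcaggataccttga
Eci3: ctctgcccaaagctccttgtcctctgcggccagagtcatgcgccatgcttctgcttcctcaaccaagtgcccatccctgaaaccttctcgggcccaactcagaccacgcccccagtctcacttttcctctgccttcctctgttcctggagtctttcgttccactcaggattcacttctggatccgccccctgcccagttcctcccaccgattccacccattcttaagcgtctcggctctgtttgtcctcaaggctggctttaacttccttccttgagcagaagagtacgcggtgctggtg
Cpt1a: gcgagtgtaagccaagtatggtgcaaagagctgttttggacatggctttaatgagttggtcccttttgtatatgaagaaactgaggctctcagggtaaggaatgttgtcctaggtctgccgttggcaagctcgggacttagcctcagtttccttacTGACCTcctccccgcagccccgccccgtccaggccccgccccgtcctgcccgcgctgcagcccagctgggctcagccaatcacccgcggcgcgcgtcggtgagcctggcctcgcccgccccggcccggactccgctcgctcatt
The hexamer, a building block of binding sites of PPAR and other nuclear receptors, was present in 7 of the 32 member entries (21.9%) and in 16.3% of all 32851 start regions. The direct repeat, 2 copies of AGGTCA with 1 base between them, at which PPAR and RXR bind side by side, was searched on both strands with at most 2 mismatches in its 12 letters outside the spacer. It was present in 3 of 32 member entries (9.38%), those of Acot4, Etfa and Slc25a20, and in 3.86% of all start regions. The match of Acot4, TGACCTTTGGCCG, spans positions -13 to -1 relative to the start and has 2 mismatches. The hexamer of the Acot3 entry lies at positions 19 to 24, and that of Cpt1a at -94 to -89. The windows of Acot1, Acot2, Ehhadh and Eci3 hold neither.

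Within groups, r over all probe sets was 0.987 to 0.996 for pairs of arrays, and the median of all probe sets lay between 4.34 and 4.46. The number of arrays limits the precision of every value. No adipocyte marker measured, Fabp4 and Adipoq among them, was under a log2 of 4 in any array, and the summed level of 11 adipocyte markers was 15.96 to 16.21 in KO HFD, 16.14 to 16.31 in WT HFD, 16.13 to 16.35 in KO LFD and 16.28 to 16.34 in WT LFD arrays on the log2 scale. Sirt1, the targeted gene, averaged 8.74 ± 0.30 in KO HFD, 8.97 ± 0.14 in WT HFD, 9.24 ± 0.22 in KO LFD and 9.43 ± 0.35 in WT LFD fat (SD, n = 4 each). Its knockout differences were -0.19 on the low fat diet (adjusted p = 0.498) and -0.22 on the high fat diet (adjusted p = 0.448), and it is not known here whether its probe set lies in the deleted part, so that it does not check the labels. Skeletal muscle transcripts were present in KO HFD replicate 4, WT HFD replicate 3, KO LFD replicate 2 and WT LFD replicates 3 and 4, where Tnnt3 reached a log2 of 8. WT HFD replicate 4, with Tnnt3 at 7.95, lay just under that level, and the log2 of its summed muscle markers was 12.5, against 12.4 in KO HFD replicate 4. It also stood apart in urothelial genes, with Upk1a at 11.7, against 2.27 to 4.22 in the other 15 arrays, a gene chosen after its values were seen. Counts below are therefore also given without the 5 arrays with Tnnt3 at that level, without WT HFD replicate 4, and without all 6, a setting chosen after seeing the data.

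In wild-type fat, more members fell than rose on the high fat diet. Of 36, 17 fell, Acot3 among them, and 2 rose, while 15.2% of all genes tested fell and 20.5% rose, so that 35.6% were called in either direction. The median difference, high fat minus low fat, was -0.31 over the members and 0.04 over all genes tested. In knockout fat, 10 members fell and 1 rose with the high fat diet (median -0.19), against 13.5% of all genes falling and 15.6% rising (29.2% called, median -0.02). In bulk tissue, fewer cells of a type and less RNA per cell cannot be told apart. Of the 17 falls in wild-type fat, 10 (58.8%) were also called in knockout fat, and these made up 100% of the falls there: Cpt2, Acadvl, Eci1, Acot2, Ehhadh, Eci3, Acot3, Acot4, Phyh and Amacr. Acot3 is in both counts, but it shows no shared fall. Its fall in wild type was fixed by the filter, and that in knockout fat lay wholly below a log2 of 4.

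Knockout against wild type on the low fat diet gave 8 falls and 1 rise among the 36 members (median -0.23), with 7.24% of all genes falling and 11.7% rising (18.9% called, median 0.04). Acot3 is 1 of the 8 falls. After centring each array on its median over tested genes, the same comparison gave 10 falls and 0 rises. On the high fat diet, 4 members fell and none rose (median -0.06), with 6.47% of all genes falling and 8.58% rising (15.1% called). The diet comparison in wild type and the knockout comparison on the low fat diet share the WT LFD arrays, and for that reason their values are set side by side below and not counted as 2 separate observations. Ehhadh, Acaa1b and Phyh fell in knockout fat on both diets. Ehhadh and Phyh were called in all 4 comparisons, 21 members were called in at least 1, and 15 in none.

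The WT LFD group had the highest mean in 24 of 36 members (66.7%), which was so for 31.7% of all genes tested. The KO HFD group had the lowest mean in 21 (58.3%), against 31.6% of all genes. In the diet comparison of wild type, 14 of 36 members had groups that did not overlap, all of them lower on the high fat diet, and 30.8% of all genes did not overlap. Groups did not overlap in 13 members with diet in knockout fat, 12 of them lower (33.1% of all genes), in 6 with knockout on the low fat diet, 5 of them lower (17.9%), and in 9 with knockout on the high fat diet, 7 of them lower (26.1%). Acot3 is in all but the last of these counts, and also among the 24 and the 21. Its place above the other groups in WT LFD was fixed by the filter, and its order among those groups lay below a log2 of 4.

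**Figure D1:**
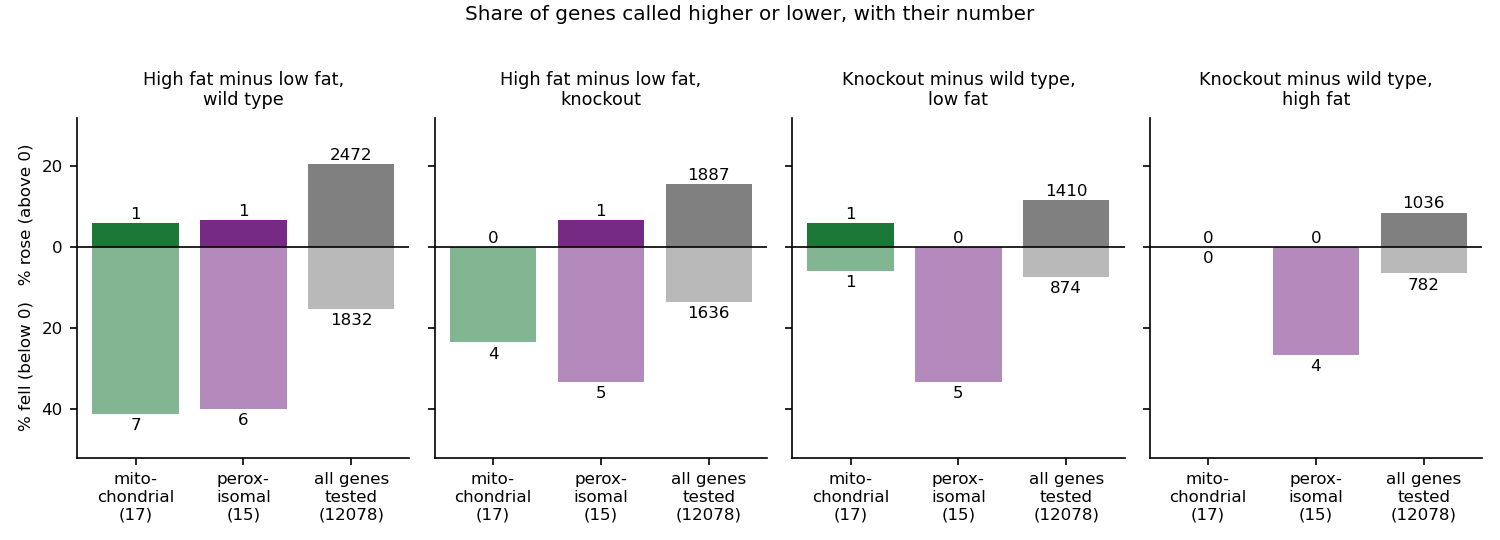
Bars give the percentage of genes called higher (above 0) or lower (below 0) at an adjusted p under 0.05 in each of 4 comparisons, with the number of genes at the bar ends, for 17 mitochondrial members, 15 peroxisomal members and all 12078 genes tested. On the high fat diet 7 mitochondrial and 6 peroxisomal members, Acot3 among them, fell in wild-type fat, and with knockout on the high fat diet 4 peroxisomal and 0 mitochondrial members fell. The peroxisomal bars of diet in knockout fat and of knockout on the low fat diet also hold Acot3. Its falls were fixed by the filter or lay below a log2 of 4.

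Other transcripts differed between the groups as well. Of 10 brown and beige fat markers, 5 fell with diet in wild type and 7 in knockout fat, and the log2 of their summed level was 10.8 to 11.4 in KO HFD, 9.51 to 11.2 in WT HFD, 11.5 to 13.8 in KO LFD and 11.6 to 12.8 in WT LFD arrays. With knockout on the low fat diet 2 of them rose, Dio2 and Otop1, and 1 fell, Ppargc1a. On the high fat diet 1 rose with knockout, Otop1, and none fell. Among them, Dio2 was under a log2 of 4 in 12 arrays and Elovl3 in 10. Dio2 passed the filter only through KO LFD arrays and Elovl3 only through low fat arrays, so that their calls against these arrays test nothing. Of 14 macrophage markers, 10 rose with diet in each genotype, 3 with knockout on the low fat diet and 8 with knockout on the high fat diet. Their summed level was 15.3 to 15.5 in KO HFD, 14.6 to 15.1 in WT HFD, 14.4 to 14.6 in KO LFD and 14.0 to 14.4 in WT LFD arrays, with no marker of the list under a log2 of 4 in every array. Of 7 mesothelial markers, 6 fell in KO HFD fat against WT HFD fat and 6 against KO LFD fat. Of 8 stroma and progenitor markers, 5 rose with diet in wild type and 4 with knockout on the low fat diet, while 1 rose and 1 fell with diet in knockout fat and 1 fell with knockout on the high fat diet. Of 8 endothelial markers, 4 rose with diet in wild type, 1 rose and 2 fell with diet in knockout fat, and 4 fell with knockout on the high fat diet. The part of these cells in the results on the members was not tested.

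Liver and kidney, where the peroxisomal enzymes are abundant, were looked for as well. Of 10 hepatocyte markers measured, 6 were tested, and 4 (Fga, Fgb, Tat and Cps1) were under a log2 of 4 in all 16 arrays. With diet in wild type 3 of the 6 fell, Apoa1, Apoc3 and Cyp2e1, which is also expressed in fat. Apoc3, an apolipoprotein gene, had 11.587, 9.846, 11.242 and 9.042 in WT LFD arrays, against 5.492 to 7.279 in the other 12, so that it was high in the same group as many members. Ttr reached 9.568 in WT HFD replicate 4. Alb was above a log2 of 4 in all 16 arrays, from 4.023 in KO HFD replicate 4 to 8.391 in KO LFD replicate 4. With diet in knockout fat 2 of the 6 fell, Alb and Cyp2e1, and 1 fell with knockout on each diet. The log2 of the summed hepatocyte markers was 10.9 to 11.9 in KO HFD and 12.6 to 12.8 in WT HFD arrays. It was 12.6 to 13.2 in KO LFD and 13.3 to 13.8 in WT LFD arrays. Cyp2e1, at 10.84 to 11.62 in KO HFD arrays, held most of this sum, which is therefore no measure of liver RNA. Of 9 kidney tubule markers, 7 were under a log2 of 4 in all 16 arrays, Umod and Kap among them. Their part in the results was not tested.

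Without the 5 arrays with muscle transcripts, fewer arrays remained, and the members were called, in either direction, no more often than genes in general. The share of all genes that fell was not counted here, so falls of members are not compared with falls of all genes. With these arrays left out, diet in wild type gave 6 calls, Acadvl, Etfdh, Ehhadh, Acot4, Crat and Acot1, all falls. They were 17.1% of the 35 members tested, against 21.3% of all genes called in either direction. Diet in knockout gave 5 calls, the falls of Eci1, Ehhadh, Eci3, Acot4 and Phyh (14.3%, against 19.3% of all genes). Ehhadh and Acot4 remained for knockout on the low fat diet (5.71%, against 6.96%), and Acaa1b and Eci3 for knockout on the high fat diet (5.71%, against 6.54%). All other member calls of these 4 comparisons ended there, except those of Acot3, which was not tested, beside the settings given for single genes below. Without all 6 arrays the 4 counts were 5, 5, 3 and 1, or 14.3%, 14.3%, 8.57% and 2.86% of the members, with 14.7%, 18.1%, 6.21% and 3.71% of all genes called. Etfdh was then no longer called with diet in wild type (adjusted p = 0.0991), nor Acaa1b with knockout on the high fat diet (adjusted p = 0.116), while Acot1 was called with knockout on the low fat diet (adjusted p = 0.0187). Acot3 was not tested in either case because only 2 of its 4 high arrays were left. Without WT HFD replicate 4 alone the 4 counts were 15, 11, 7 and 4.

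**Figure D2:**
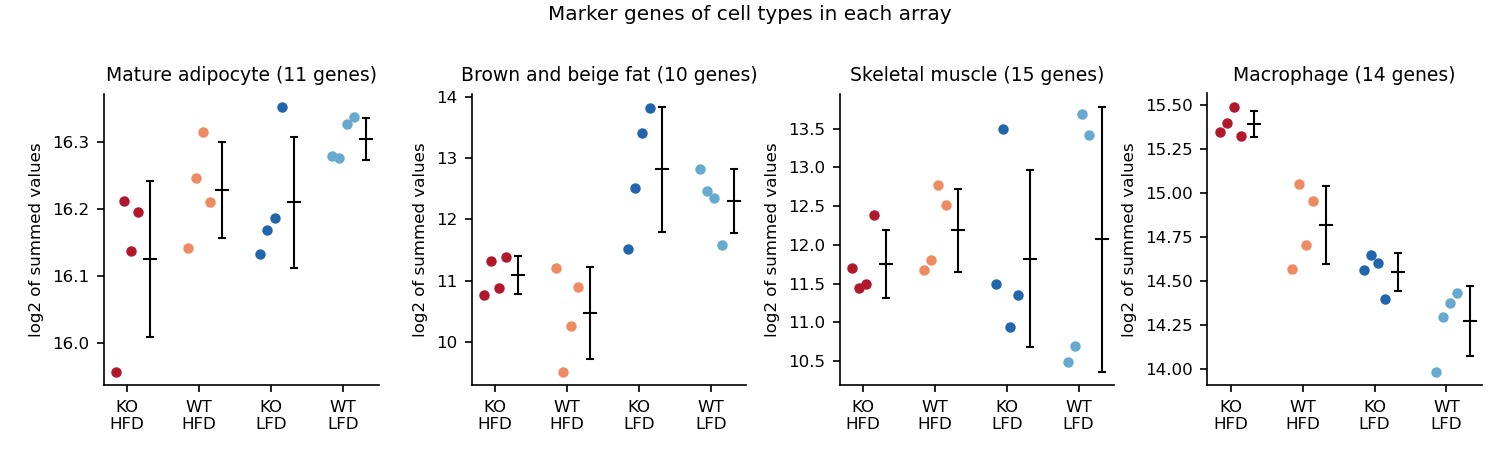
Each point is 1 array, and the vertical axis is the log2 of the summed linear values of the marker genes of a cell type, with the mean and SD of 4 arrays beside each group. Brown and beige fat markers were lower in high fat than in low fat arrays, macrophage markers were highest in KO HFD arrays at 15.3 to 15.5, and muscle markers were high in single arrays of several groups.

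The carnitine shuttle held the only mitochondrial member that rose. Cpt1a, whose product is the rate-limiting enzyme for mitochondrial uptake of long chains, had values of 11.59, 11.08, 10.97 and 10.93 in KO HFD, 11.41, 10.56, 11.01 and 10.78 in WT HFD, 11.35, 10.97, 11.05 and 10.65 in KO LFD, and 10.15, 10.67, 10.10 and 10.38 in WT LFD arrays. WT LFD was the lowest group, and its highest array, replicate 2, overlapped the low ends of WT HFD and KO LFD. Cpt1a rose by 0.62 with diet in wild type (SE 0.20, adjusted p = 0.0271) and by 0.68 with knockout on the low fat diet (SE 0.20, adjusted p = 0.0286). In knockout fat the diet difference was 0.14 (adjusted p = 0.653), and the interaction was -0.48 (adjusted p = 0.283). Both calls ended with arrays centred on their median over tested genes (adjusted p = 0.0659 for diet and 0.0541 for knockout) and when WT LFD replicate 1 or 3 was left out (0.0729 and 0.073 for diet, 0.0824 and 0.0746 for knockout). The diet call also ended without WT HFD replicate 1 (0.0919) or 3 (0.0616), and the knockout call without KO LFD replicate 1 (0.101), 2 (0.0592) or 3 (0.0621). With the mean of its probe sets, the interaction of Cpt1a was -0.71 and was called (adjusted p = 0.0346).

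The next steps of the shuttle moved the other way. Cpt2 had values of 9.69, 10.10, 9.66 and 9.65 in KO HFD and 9.94, 10.04, 10.20 and 10.20 in WT HFD arrays. On the low fat diet it had 10.13, 10.41, 10.50 and 11.19 in KO LFD and 11.55, 10.17, 11.04 and 10.93 in WT LFD arrays. The groups of knockout fat did not overlap, while WT LFD replicate 2 lay among the WT HFD arrays. Cpt2 fell by 0.83 with diet in wild type (SE 0.25, adjusted p = 0.0167) and in knockout fat by 0.78 (SE 0.25, adjusted p = 0.0265). The wild-type call ended without WT LFD replicate 1 (adjusted p = 0.0622), and the knockout call without KO LFD replicate 3 (0.0506) or 4 (0.083), or KO HFD replicate 1 (0.0644), 3 (0.0623) or 4 (0.065). Slc25a20, the inner membrane carrier, fell by 0.31 with diet in wild type (SE 0.11, adjusted p = 0.0456), a call that ended under 16 of 28 other settings. Genotype differences of Cpt2 and Slc25a20 were not called on either diet.

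Crat, which makes and splits acetyl-carnitine in mitochondria and peroxisomes, had a diet difference that was itself different between genotypes. It had values of 10.19, 10.57, 10.10 and 10.22 in KO HFD and 9.80, 9.83, 10.03 and 9.77 in WT HFD arrays. The low fat values were 9.88, 9.92, 10.39 and 10.89 in KO LFD and 11.47, 10.65, 11.33 and 11.06 in WT LFD arrays. WT HFD was the lowest group and did not overlap WT LFD, which was the highest. Crat fell by 1.27 with diet in wild type (SE 0.21, adjusted p = 0.000283), to 41.4% of the WT LFD level. In knockout fat the diet difference was 0.00 (95% confidence interval -0.45 to 0.45, adjusted p = 0.997). The interaction was 1.27 (SE 0.30, adjusted p = 0.0123), and without the 5 arrays with muscle transcripts it was 1.16 (adjusted p = 0.141), with an adjusted p of 0.206 without the 6. Knockout lowered Crat by 0.86 on the low fat diet (SE 0.21, adjusted p = 0.0107), with KO LFD replicate 4 inside the WT LFD range, and the call ended in a fit of these 2 groups alone (adjusted p = 0.0615). On the high fat diet the knockout difference was 0.41 (adjusted p = 0.207). There the other probe sets of Crat gave 0.68 and 0.97 (adjusted p = 0.19 and 0.00595 in a fit of all probe sets), and the mean of its probe sets 0.69 (adjusted p = 0.0218). With knockout on the low fat diet the other probe sets gave -0.36 and -0.44, neither called.

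Of the 4 acyl-CoA dehydrogenases, which open each turn for chains of decreasing length, those for very long and long chains fell with diet and those for medium and short chains did not pass the test. Acadvl had values of 11.04, 11.27, 10.91 and 10.85 in KO HFD and 11.13, 11.06, 11.09 and 11.27 in WT HFD arrays. It had 11.29, 11.32, 11.53 and 12.06 in KO LFD and 12.37, 11.71, 12.34 and 11.92 in WT LFD arrays. All high fat arrays lay below all low fat arrays. Acadvl fell by 0.95 with diet in wild type (SE 0.18, adjusted p = 0.000732), to 51.9% of the WT LFD level, and in knockout fat by 0.54 (SE 0.18, adjusted p = 0.0329). It fell by 0.53 with knockout on the low fat diet (adjusted p = 0.0475), a call that ended under 17 of 28 other settings. Leaving out KO LFD replicate 3 or 4, or KO HFD replicate 1, 3 or 4, ended the diet call in knockout fat (adjusted p = 0.0646, 0.0996, 0.062, 0.0794 and 0.0889), as did the replicate block (0.0523).

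Acadl averaged 11.51 ± 0.20 in KO HFD, 11.61 ± 0.05 in WT HFD, 11.79 ± 0.34 in KO LFD and 12.18 ± 0.15 in WT LFD fat (SD, n = 4 each). It fell by 0.57 with diet in wild type (SE 0.15, adjusted p = 0.00842), and its other 3 comparisons were not called. Acadm, for medium chains, differed by -0.20 with diet in wild type (95% confidence interval -0.42 to 0.03, adjusted p = 0.167) although its 4 WT HFD arrays lay below its 4 WT LFD arrays. Acads, for short chains, differed by -0.39 in wild type and by 0.27 in knockout fat, and neither was called.

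The enzymes that finish each turn in mitochondria were not called in any pairwise comparison. They are Hadha and Hadhb, the subunits of the trifunctional protein, both encoded on chromosome 5, then Hadh, the hydroxyacyl-CoA dehydrogenase for shorter chains, and Acaa2, a thiolase. Diet differences in wild type were -0.17 for Hadha, -0.07 for Hadhb, -0.12 for Hadh and 0.16 for Acaa2. In knockout fat they were 0.36, -0.01, -0.18 and -0.04 in the same gene order. The interval of Hadha in wild type, -0.71 to 0.37, leaves room for changes of the size seen in Acadl. Acaa2 was 0.34 higher with knockout on the low fat diet (adjusted p = 0.0609), a difference that was not called. Its other probe sets gave 0.32 and 0.69 (adjusted p = 0.252 and 0.0195 in a fit of all probe sets). The mean of its probe sets gave 0.45 (adjusted p = 0.0476). Hadhb depended on the probe set, since the brightest one, used here, gave -0.07 with diet in wild type while the other 2 gave -0.55 and -0.68 (adjusted p = 0.0164 and 0.00844 in a fit of all probe sets). With the mean of the 3 probe sets, Hadhb fell by 0.43 (adjusted p = 0.00457).

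Electrons leave the mitochondrial dehydrogenases through Etfa and Etfb, the subunits of the flavoprotein, and Etfdh, the oxidoreductase that hands them to ubiquinone. Etfdh had values of 10.22, 10.34, 10.27 and 10.40 in KO HFD and 10.30, 10.15, 9.95 and 10.16 in WT HFD arrays. Its low fat values were 10.46, 10.35, 10.63 and 11.15 in KO LFD and 11.16, 10.64, 11.12 and 10.70 in WT LFD arrays. WT HFD and WT LFD did not overlap, whereas KO LFD replicate 2 lay inside the KO HFD range. Etfdh fell by 0.77 with diet in wild type (SE 0.16, adjusted p = 0.00203), and the difference in knockout fat was -0.34 (adjusted p = 0.137), with an interaction of 0.43 that was not called (adjusted p = 0.236). Etfa differed by -0.30 (adjusted p = 0.0591) and Etfb by -0.54 (adjusted p = 0.0955) with diet in wild type, and neither was called.

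Unsaturated chains need isomerases and reductases to move or remove double bonds. Eci1, the mitochondrial isomerase, averaged 10.77 ± 0.26 in KO HFD, 11.18 ± 0.05 in WT HFD, 11.46 ± 0.20 in KO LFD and 11.68 ± 0.19 in WT LFD fat (SD, n = 4 each). It fell by 0.50 with diet in wild type (SE 0.14, adjusted p = 0.0111) and in knockout fat by 0.69 (SE 0.14, adjusted p = 0.00162). Eci2, found in mitochondria and peroxisomes, fell by 0.31 with diet in wild type (SE 0.12, adjusted p = 0.0467), a call that ended under 18 of 28 other settings.

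Eci3 is a peroxisomal isomerase encoded on chromosome 13, and its start region is printed above. It had values of 5.22, 6.48, 5.75 and 5.75 in KO HFD, 8.09, 8.37, 8.55 and 8.11 in WT HFD, 8.39, 8.61, 8.73 and 9.32 in KO LFD, and 9.14, 8.72, 9.34 and 9.17 in WT LFD arrays. All 4 KO HFD arrays lay far below every other array, and the other 12 arrays lay between 8.09 and 9.34. With diet, Eci3 fell in knockout fat by 2.97 (SE 0.24, adjusted p = 9.69e-07), to 12.8% of the KO LFD level, and by 0.81 in wild type (SE 0.24, adjusted p = 0.0147), to 56.9% of the WT LFD level. The interaction was -2.15 (SE 0.34, adjusted p = 0.001), and it stayed called under all 27 other settings, with adjusted p between 0.000358 and 0.0396. Knockout lowered Eci3 by 2.48 on the high fat diet (SE 0.24, adjusted p = 1.91e-05), to 17.9% of the WT HFD level. On the low fat diet the knockout difference was -0.33 (adjusted p = 0.361).

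Decr2, the peroxisomal dienoyl-CoA reductase, was the only peroxisomal member that rose with diet in wild type. Its values were 5.87, 7.58, 7.15 and 6.74 in KO HFD and 7.13, 8.05, 7.88 and 8.21 in WT HFD arrays. It had 6.88, 6.97, 7.83 and 7.09 in KO LFD and 6.62, 7.45, 5.75 and 6.92 in WT LFD arrays. The groups overlapped in every comparison, and the spread within groups was wide. Decr2 rose by 1.13 with diet in wild type (SE 0.38, adjusted p = 0.0286). The call ended without WT LFD replicate 1 (adjusted p = 0.06) or 3 (0.0973) and without WT HFD replicate 2 (0.0711), 3 (0.0585) or 4 (0.0754). In knockout fat the diet difference was -0.36 (adjusted p = 0.515), and the interaction of -1.49 was not called (adjusted p = 0.0762). Decr1, the mitochondrial reductase, was called in none of the comparisons. Its other probe set rose by 0.48 with knockout on the low fat diet (adjusted p = 0.0338 in a fit of all probe sets), where the one used gave -0.18.

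In peroxisomes, the importers Abcd2 and Abcd3 and the oxidase Acox3 did not pass the test with the probe sets used here. Abcd2 and Abcd3, transporters of very long and branched acyl-CoA, differed by 0.31 and -0.03 with diet in wild type and by -0.22 and -0.17 in knockout fat. Another probe set of Abcd2 rose by 0.53 with diet in wild type and by 0.42 with knockout on the low fat diet (adjusted p = 0.00371 and 0.0258 in a fit of all probe sets). A further probe set gave 0.06 and -0.22, neither called. With the mean of its probe sets, Abcd2 rose by 0.32 with diet in wild type (adjusted p = 0.0271). The oxidase Acox3 was dim in every group, with means from 4.39 to 4.60, so that its values sit close to the filter.

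Ehhadh, the peroxisomal bifunctional enzyme that acts on straight and dicarboxylic chains, fell in all 4 comparisons. It had values of 8.33, 8.58, 8.32 and 8.78 in KO HFD, 9.40, 8.84, 9.34 and 8.97 in WT HFD, 9.30, 9.04, 9.47 and 9.67 in KO LFD, and 11.03, 10.41, 10.29 and 10.19 in WT LFD arrays. The 4 WT LFD arrays were above all others and the 4 KO HFD arrays below all others, while WT HFD and KO LFD overlapped. With diet, Ehhadh fell by 1.34 in wild type (SE 0.19, adjusted p = 8.69e-05), to 39.5% of the WT LFD level, and in knockout fat by 0.87 (SE 0.19, adjusted p = 0.00321), to 54.7% of the KO LFD level. With knockout it fell by 1.11 on the low fat diet (SE 0.19, adjusted p = 0.00114), and its fall on the high fat diet was 0.63 (SE 0.19, adjusted p = 0.0377). The interaction was 0.47 and was not called (adjusted p = 0.27). The first 3 calls held under all other settings, and the last ended with the replicate block (0.0517), without the 5 arrays with muscle transcripts (0.0784), without the 6 (0.133), without WT HFD replicate 1 (adjusted p = 0.107) or 3 (0.108) and without KO HFD replicate 1 (0.112), 2 (0.0569) or 3 (0.0983).

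Hsd17b4, the other bifunctional enzyme, which acts on branched chains and bile acid precursors, was not called anywhere, with differences from 0.09 to 0.17 in the 4 comparisons. The paired thiolases parted. Acaa1a was not called, with a knockout difference of 0.12 on the low fat diet and 0.27 on the high fat diet. Acaa1b averaged 11.55 ± 0.09 in KO HFD, 12.12 ± 0.10 in WT HFD, 11.70 ± 0.03 in KO LFD and 12.15 ± 0.32 in WT LFD fat (SD, n = 4 each). It fell with knockout by 0.57 on the high fat diet (SE 0.13, adjusted p = 0.00867) and by 0.45 on the low fat diet (SE 0.13, adjusted p = 0.0266), and its diet differences, -0.15 in knockout and -0.02 in wild type, were not called. Among 28 other settings, the high fat call ended in 1, which leaves out all 6 arrays named above (adjusted p = 0.116). The low fat call ended in a fit of these 2 groups alone (adjusted p = 0.112), without WT LFD replicate 1 (0.0646) or 3 (0.0767) and without KO LFD replicate 1 (0.0625), 2 (0.0564) or 3 (0.0512). The 2 probe sets that cover Acaa1a and Acaa1b together were not used, since the genes are near-identical and their signals may still mix.

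Phyh, which starts alpha-oxidation of phytanic acid in peroxisomes, was the other member called in all 4 comparisons. It averaged 11.05 ± 0.16 in KO HFD, 11.45 ± 0.06 in WT HFD, 11.66 ± 0.19 in KO LFD and 12.03 ± 0.16 in WT LFD fat (SD, n = 4 each). Phyh fell with diet by 0.58 in wild type (SE 0.12, adjusted p = 0.00136) and in knockout fat by 0.61 (SE 0.12, adjusted p = 0.00107). With knockout it fell by 0.36 on the low fat diet (adjusted p = 0.042), and the fall on the high fat diet was 0.40 (adjusted p = 0.0332). The low fat knockout call ended under 14 of 28 other settings. The high fat one ended under 7, which leave out the 5 arrays with muscle transcripts (adjusted p = 0.119), the 6 (0.259), WT HFD replicate 1 (0.075), 3 (0.0755) or 4 (0.0726), or KO HFD replicate 1 (0.107) or 3 (0.0891).

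Amacr, the racemase that prepares branched chains for beta-oxidation, had values of 6.46, 7.09, 7.09 and 7.04 in KO HFD and 7.03, 7.12, 7.14 and 7.20 in WT HFD arrays. It had 7.25, 7.48, 7.57 and 8.09 in KO LFD and 8.38, 7.20, 8.16 and 7.90 in WT LFD arrays. Its knockout groups did not overlap, and WT LFD replicate 2 lay at the top of the WT HFD range. It fell by 0.79 with diet in wild type (SE 0.23, adjusted p = 0.0137) and in knockout fat by 0.68 (SE 0.23, adjusted p = 0.0351). The wild-type call ended without WT LFD replicate 1 (adjusted p = 0.0512). The knockout call ended without KO LFD replicate 2 (0.0514), 3 (0.0667) or 4 (0.105) and without KO HFD replicate 1 (0.121) or 4 (0.053).

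Crot, which turns shortened chains into carnitine esters for export, was not called, although its 4 KO LFD arrays lay above its 4 WT LFD arrays (0.37, adjusted p = 0.0547). Pex11a, which takes part in the division of peroxisomes, fell by 0.45 with diet in wild type (SE 0.15, adjusted p = 0.0265), with 1 WT HFD array inside the WT LFD range. That call ended with array weights (adjusted p = 0.0565), in a fit of these 2 groups alone (0.0951), without WT LFD replicate 1 (0.0747) or 3 (0.0674) and without WT HFD replicate 2 (0.0802) or 4 (0.0947).

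The acyl-CoA thioesterases held the member with the largest difference, Acot3, and 3 more members that fell with diet in wild type. Acot3, a peroxisomal thioesterase for long chains, had values of 1.44, 1.76, 1.67 and 1.62 in KO HFD, 1.85, 1.96, 1.81 and 1.62 in WT HFD, 2.28, 2.35, 2.87 and 3.33 in KO LFD, and 7.84, 6.38, 7.54 and 7.03 in WT LFD arrays. It was thus above a log2 of 4 in the 4 WT LFD arrays and below it in the other 12, where values have no reliable order. Because it passed the filter only through WT LFD, it had to differ there, and its differences are given as a description, with no test. With values floored at 4, Acot3 was at least 9.17-fold lower in WT HFD than in WT LFD fat and at least 9.17-fold lower in KO LFD than in WT LFD fat. Its difference of -1.08 with diet in knockout fat lay wholly below the floor. Counted without Acot3, 35 members gave 16 falls and 2 rises with diet in wild type, 9 and 1 in knockout fat, 7 and 1 with knockout on the low fat diet, and 4 and 0 on the high fat diet.

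Acot4, whose product acts on succinyl-CoA and dicarboxylic acyl-CoA in mouse peroxisomes, had values of 3.84, 4.12, 3.79 and 4.05 in KO HFD, 4.56, 4.39, 4.47 and 4.42 in WT HFD, 5.32, 5.69, 6.31 and 6.68 in KO LFD, and 8.04, 7.05, 7.49 and 7.84 in WT LFD arrays. The 4 groups formed a ladder without overlap, from KO HFD at the bottom to WT LFD at the top. With diet, Acot4 fell by 3.14 in wild type (SE 0.25, adjusted p = 5.48e-07), to 11.3% of the WT LFD level. It fell in knockout fat by 2.05 (SE 0.25, adjusted p = 2.16e-05), or by 1.96 with values floored at 4. Knockout lowered it by 1.60 on the low fat diet (SE 0.25, adjusted p = 0.000454), and these 3 calls held under all other settings. On the high fat diet the knockout difference was -0.51 (adjusted p = 0.182). The interaction was 1.09 (adjusted p = 0.0534), and it passed the threshold under 7 of 27 other settings, among them values floored at 4 (1.18, adjusted p = 0.0338). Acot4 is the member whose start region holds the direct repeat printed above.

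Acot1, the cytosolic thioesterase, had values of 5.998, 4.861, 6.002 and 5.889 in KO HFD and 4.32, 4.61, 4.99 and 7.72 in WT HFD arrays. It had 4.54, 5.68, 6.07 and 6.54 in KO LFD and 8.69, 7.86, 7.72 and 7.20 in WT LFD arrays. WT LFD was the highest group, and the only array of another group within its range was WT HFD replicate 4, the array with urothelial transcripts. Acot1 fell by 2.45 with diet in wild type (SE 0.61, adjusted p = 0.00546), and by 3.23 without that array (adjusted p = 7.76e-05). With knockout it fell by 2.16 on the low fat diet (SE 0.61, adjusted p = 0.0218), a call that ended without WT LFD replicate 1 (0.0743), KO LFD replicate 1 (0.0813) or KO LFD replicate 2 (0.0507). In knockout fat the diet difference was -0.02 (95% confidence interval -1.32 to 1.28, adjusted p = 0.984). The interaction of 2.43 was not called (adjusted p = 0.0741), and without WT HFD replicate 4 it was 3.21 and was called (adjusted p = 0.00321), as it was without the 6 arrays (3.71, adjusted p = 0.0315).

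Acot2, the mitochondrial thioesterase of the cluster, had values of 10.36, 10.67, 10.65 and 10.66 in KO HFD and 10.39, 10.77, 10.68 and 10.69 in WT HFD arrays. It had 10.69, 11.12, 11.57 and 11.74 in KO LFD and 11.28, 11.61, 11.62 and 11.88 in WT LFD arrays. High fat arrays lay below low fat arrays within each genotype. Acot2 fell with diet by 0.96 in wild type (SE 0.19, adjusted p = 0.00122), to 51.3% of the WT LFD level, and in knockout fat by 0.69 (SE 0.19, adjusted p = 0.0134). The knockout differences, -0.32 on the low fat diet (adjusted p = 0.269) and -0.05 on the high fat diet (adjusted p = 0.899), were not called. With diet in wild type, Acot2, Acot1 and Acot4 thus fell by 0.96 to 3.14, beside the bound given for Acot3. A probe set that covers Acot1 and Acot2 together was not used, and signal shared among these related transcripts was not tested.

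Acot8, a peroxisomal thioesterase encoded on chromosome 2, moved in the opposite direction. It averaged 7.17 ± 0.12 in KO HFD, 6.73 ± 0.33 in WT HFD, 6.67 ± 0.11 in KO LFD and 6.43 ± 0.21 in WT LFD fat (SD, n = 4 each). Acot8 rose by 0.49 with diet in knockout fat (SE 0.15, adjusted p = 0.0216), without overlap between the groups, and its difference in wild type was 0.30 (adjusted p = 0.131). The call ended without KO LFD replicate 1 (adjusted p = 0.0593) or 3 (0.0579) and without KO HFD replicate 1 (0.0566) or 3 (0.0568).

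**Figure D3:**
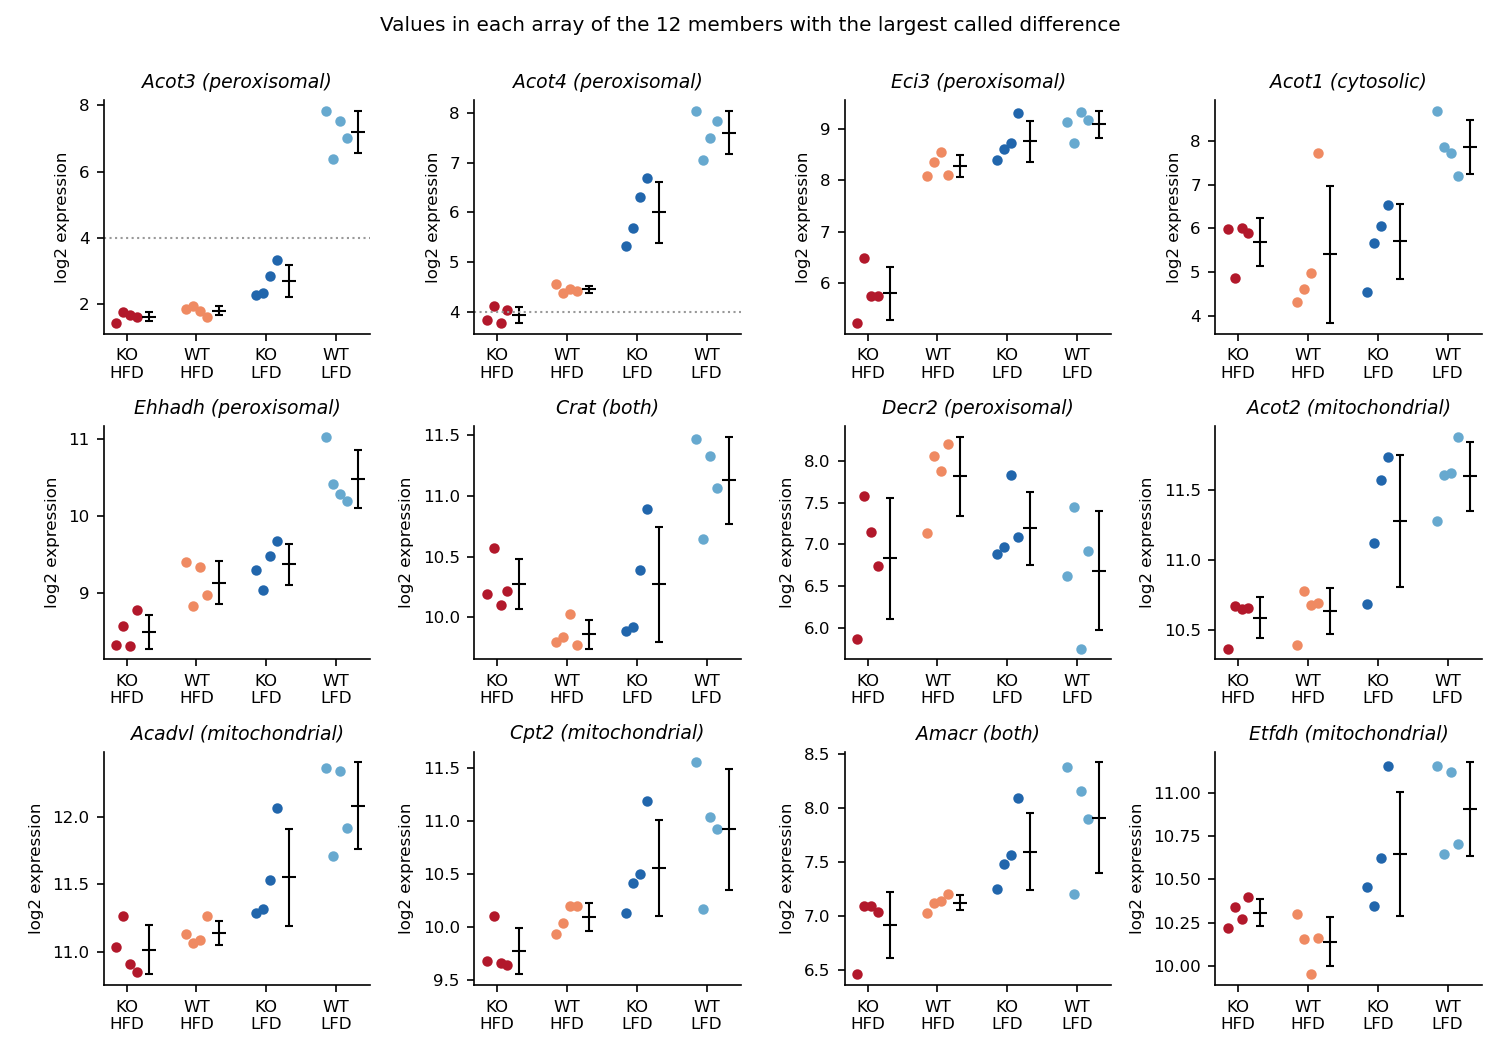
Each panel shows 1 of the 12 members with the largest called difference, and each point is the log2 expression in 1 array, with the mean and SD of 4 arrays beside each group; the dotted line marks a log2 of 4. Acot3 stands above the line in WT LFD arrays alone, Acot4 steps down from WT LFD to KO HFD without overlap, and Eci3 is low in the 4 KO HFD arrays.

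The members were also counted by compartment, with no test between the compartments. With diet in wild type, where 15.2% of all genes fell, 7 of 17 mitochondrial members fell and 1 rose, with differences from -0.96 to 0.62 and a median of -0.31. Of 15 peroxisomal members, 6 fell and 1 rose, with differences from -5.39 to 1.13 and a median of -0.09. The value of -5.39 and 1 of the 6 falls were those of Acot3, fixed by the filter. With diet in knockout fat, where 13.5% of all genes fell, 4 of 17 mitochondrial members fell (median -0.18), and 5 of 15 peroxisomal members fell and 1 rose (median -0.22). Again 1 of the peroxisomal falls was that of Acot3, whose values there lay wholly below a log2 of 4. The 3 members of both compartments all fell with diet in wild type, and 1, Amacr, in knockout fat.

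With knockout on the low fat diet, 1 of 17 mitochondrial members fell and 1 rose (median -0.23), and 5 of 15 peroxisomal members fell (median -0.22), where 7.24% of all genes fell. Among these 5 was Acot3, whose fall was fixed by the filter. At an unadjusted p under 0.05 in either direction the counts were 6 mitochondrial and 6 peroxisomal members, Acot3 again among the latter. Of these, Cpt1a and Acaa2 in mitochondria and Crot in peroxisomes were higher in knockout fat, and the others lower. The gap between the counts called in either direction thus rests on the threshold. With knockout on the high fat diet, 0 of 17 mitochondrial members were called by limma, where 1 had an unadjusted p under 0.05 and differences ran from -0.42 to 0.42 (median -0.05). There 4 of 15 peroxisomal members fell (median -0.19), with differences from -2.48 to 0.43, where 6.47% of all genes fell and 7 of 15 had an unadjusted p under 0.05. The 4 were Ehhadh, Acaa1b, Eci3 and Phyh. The mitochondrial member nearest to a call there was Eci1 (-0.42, adjusted p = 0.0572), and it passed the threshold under 7 of 28 other settings. Among other oxidation, ketone and lipid genes of these compartments, described below, the counts went the other way. With knockout on the low fat diet, 6 of 17 mitochondrial genes fell and 2 rose, and 1 of 20 peroxisomal genes fell and 1 rose. On the high fat diet 4 of 17 and 1 of 20 fell, and none rose. Of 13 peroxins, which build peroxisomes, 4 fell and 1 rose with knockout on the low fat diet. With knockout on the high fat diet 1 of them rose and 0 fell.

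**Figure D4:**
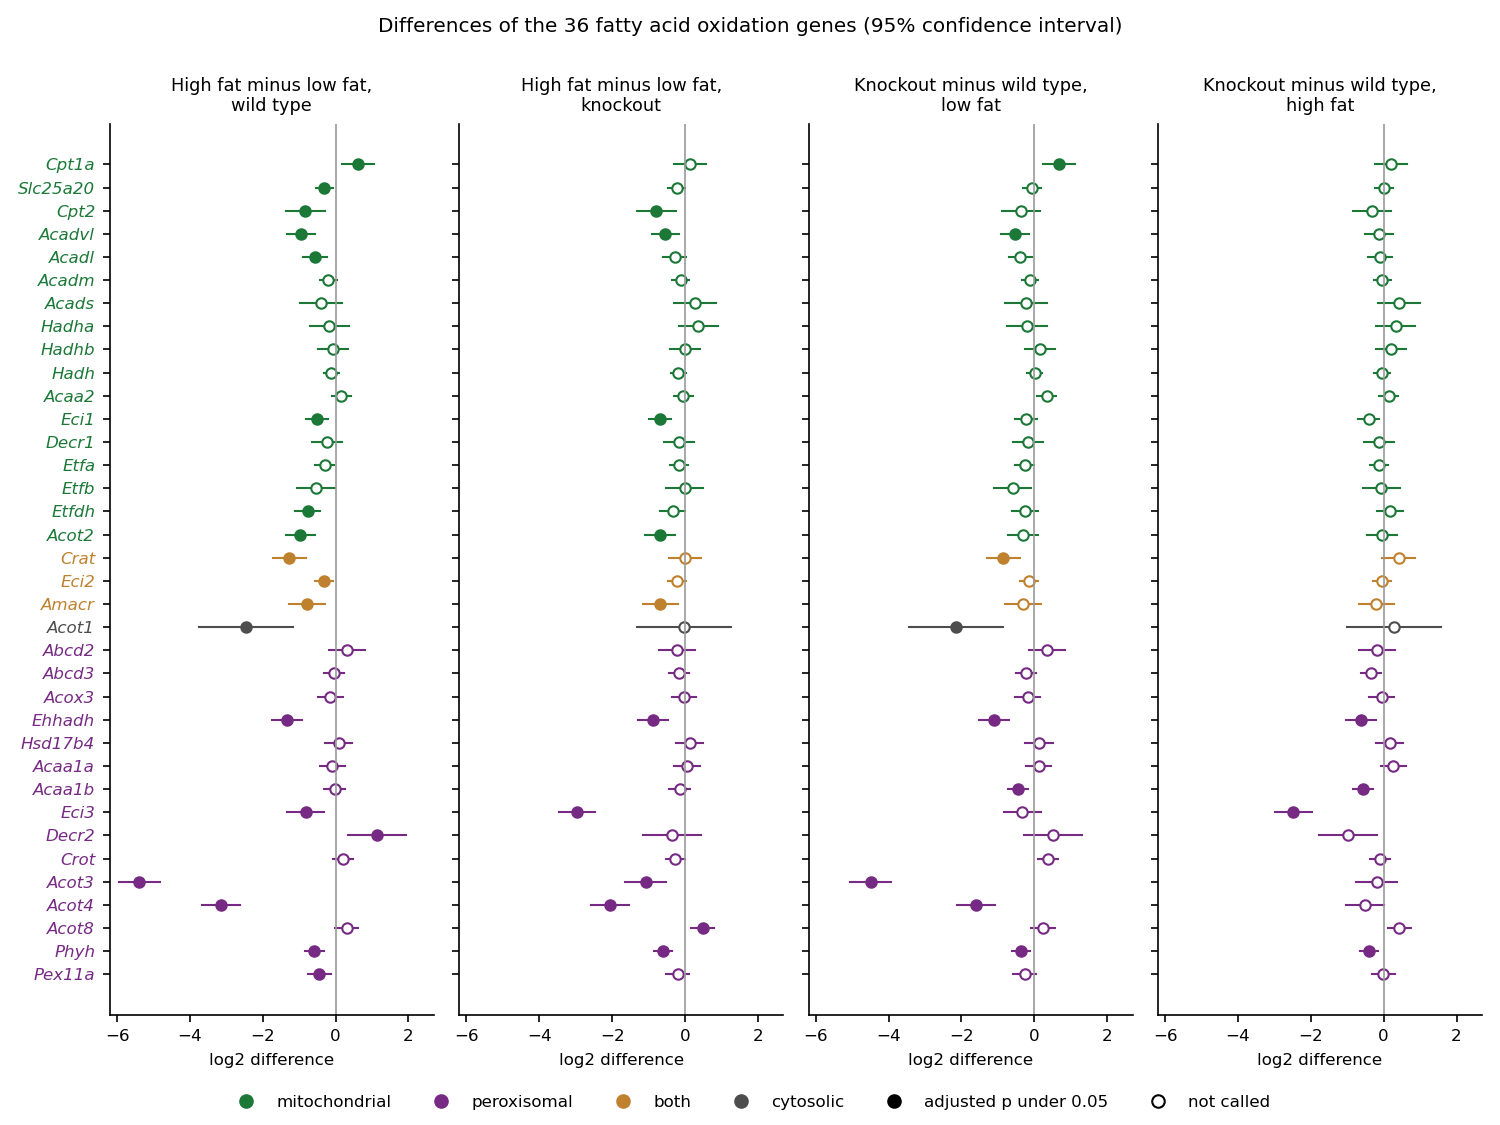
Each row is 1 member and each panel 1 comparison; points are log2 differences (high fat minus low fat diet, or knockout minus wild type) with 95% confidence intervals, filled where the adjusted p was under 0.05, and colours give the compartment. Most mitochondrial members lie between -1 and 0 with diet in wild type, and the peroxisomal members hold both the largest falls and values near 0.

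The diet response differed between genotypes by the interaction test in Eci3 and Crat, while 13% of all genes tested had a called interaction (7.87% negative and 5.12% positive). Eci3 fell more in knockout fat, whereas Crat fell more in wild type. Acot3 also had an interaction past the threshold, but only WT LFD reached the filter, so that its difference between genotypes was fixed by the filter and is not counted. Of the 9 members called with diet in wild type and not in knockout fat, Crat alone had a called interaction. The other 8, Cpt1a, Slc25a20, Acadl, Etfdh, Decr2, Pex11a, Eci2 and Acot1, had no called interaction in the main fit. Those of Cpt1a and Etfdh were called under 1 of 27 other settings each, and those of Decr2 and Acot1 under 3 each.

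Single arrays moved many members at once. KO LFD replicate 4 was the highest array of its group in 26 of 36 members and in 14 of 17 mitochondrial ones, against 36.3% of all genes, and KO LFD replicate 1 was the lowest in 25 (26.6% of all genes). WT LFD replicate 2 was the lowest of its group in 20 members (38.9% of all genes). KO LFD replicate 4 also had the highest summed level of brown and beige fat markers in its group, at 13.8, and KO LFD replicate 1 the lowest, at 11.5. Without KO LFD replicate 4, the counts of calls were 20 for diet in wild type, 8 for diet in knockout fat, 12 for knockout on the low fat diet and 4 on the high fat diet. Diet in wild type gave 11 calls without WT LFD replicate 1. Diet in knockout fat gave 6 calls without KO LFD replicate 3 and 7 without KO HFD replicate 1. Knockout on the low fat diet gave 3 calls without WT LFD replicate 1, 4 without WT LFD replicate 3, 5 without KO LFD replicate 1, 4 without KO LFD replicate 2 and 5 without KO LFD replicate 3, against 13 without WT LFD replicate 2. Knockout on the high fat diet gave 2 calls without KO HFD replicate 1 or 3 or WT HFD replicate 1 or 3.

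Other genes of the pathway, taken from lists of known genes, fell more often than they rose with diet. Of 17 other mitochondrial oxidation and ketone genes tested, 8 fell and 2 rose with diet in wild type, and 5 fell in knockout fat. With knockout, 6 fell and 2 rose on the low fat diet and 4 fell on the high fat diet. Hsd17b10, a hydroxyacyl-CoA dehydrogenase of branched amino acid and fatty acid breakdown, averaged 10.37 in KO HFD, 10.67 in WT HFD, 10.82 in KO LFD and 12.03 in WT LFD fat. It fell by 1.36 with diet in wild type (adjusted p = 3.61e-05) and by 1.22 with knockout on the low fat diet (adjusted p = 0.000266). Oxct1, which activates ketone bodies for use, rose by 0.61 with diet in wild type (adjusted p = 0.000119).

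Of 20 other peroxisomal genes tested, 8 fell and 2 rose with diet in wild type, 6 fell and 2 rose in knockout fat, 1 fell and 1 rose with knockout on the low fat diet, and 1 fell on the high fat diet. Slc27a2, a very long chain acyl-CoA synthetase, was under a log2 of 4 in all high fat arrays. With values floored at 4 it was at least 4.03-fold lower in WT HFD than in WT LFD fat, and its floored difference with diet in knockout fat was -0.99. Slc27a2 passed the filter only through low fat arrays, so these values are given as a description, with no test. It is among the falls counted above with diet in both genotypes. Of 13 peroxins, the proteins that build peroxisomes, 7 fell and 1 rose with diet in wild type and 2 fell and 1 rose in knockout fat. Pex3, which is needed to form the peroxisomal membrane, fell by 1.40 in wild type (adjusted p = 0.000136) and by 0.92 in knockout fat (adjusted p = 0.00434). Of 16 synthetases and entry genes, 3 fell and 2 rose with diet in wild type. Acsm3, a medium chain acyl-CoA synthetase, fell in all 4 comparisons, by 3.05 and 3.02 with diet in wild type and knockout fat and by 1.88 and 1.84 with knockout on the low and high fat diet.

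Of 22 regulators tested, 12 fell with diet in wild type, 8 in knockout fat and 5 with knockout on the low fat diet, and none rose in any of these. Ppara, a known regulator of many of the members, averaged 4.18 ± 0.25 in KO HFD and 4.50 ± 0.45 in WT HFD fat. On the low fat diet it averaged 6.05 ± 0.67 in KO LFD and 6.81 ± 0.46 in WT LFD fat (SD, n = 4 each). In KO HFD replicates 1 (3.944) and 4 (3.992) and WT HFD replicate 2 (3.939) it was just under a log2 of 4. Its part in the results on the members was not tested. Ppara fell with diet by 2.31 in wild type (adjusted p = 4.3e-05) and by 1.87 in knockout fat (adjusted p = 0.000296). Knockout differences of Ppara were not called. Ppargc1a, which encodes the coactivator PGC-1 alpha, fell with diet by 1.63 in wild type (adjusted p = 0.000411) and by 0.91 in knockout fat (adjusted p = 0.0242). With knockout on the low fat diet it fell by 1.01 (adjusted p = 0.0213). Acacb, whose product makes the malonyl-CoA that inhibits CPT1, fell by 2.28 with diet in wild type (adjusted p = 1.26e-05) and by 1.49 in knockout fat (adjusted p = 0.000546). Pparg, the adipocyte receptor, fell by 0.98 with diet in wild type (adjusted p = 0.000155) and by 0.72 with knockout on the low fat diet (adjusted p = 0.0038).

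Of 16 PPAR targets outside oxidation, 7 fell and 1 rose with diet in wild type and 6 fell and 1 rose in knockout fat. Vnn1, a pantetheinase that releases pantothenate from coenzyme A breakdown products, fell by 1.94 with diet in wild type (adjusted p = 1.49e-05) and by 1.85 with knockout on the low fat diet (adjusted p = 6.13e-05). Cidea, a lipid droplet protein of brown and beige fat, fell by 3.95 in wild type (adjusted p = 0.000302) and by 5.50 in knockout fat (adjusted p = 2.1e-05). Cidea is also in the brown and beige fat list, as is Ppargc1a.

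Other probe sets of the members mostly had the sign of the one used. Of 17 others above the floor, 15 had the same sign with diet in wild type, 14 with diet in knockout, 12 with knockout on the low fat diet and 10 on the high fat diet. All 6 that belong to members called with diet in wild type, and all 4 of members called with knockout on the low fat diet, had the sign of the call. The 2 other probe sets of Cpt1a rose by 0.73 and 1.07 with diet in wild type (adjusted p = 0.0222 and 4.84e-05 in a fit of all probe sets). With knockout on the low fat diet they rose by 0.85 and 0.82 (adjusted p = 0.0191 and 0.00121 in that fit). Cpt1a, Hadhb, Hadh, Hsd17b4 and Acaa1a were read by probe sets of the _x_at type, and Acaa2 and Acot3 by the _s_at type, which can bind related transcripts.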

How the data were processed

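The authors deposited log2 expression values for 45037 probe sets on 16 Affymetrix mouse arrays, and per the submitters' processing notes they had used GCRMA (2.20.0) under R (2.11.1). The log2 values were used as deposited. RNA was extracted with Trizol and columns per the labels' protocols. A gene was read by its brightest probe set with 1 gene symbol (34945 probe sets had 1, 932 several and 9160 none). Tests covered the 12078 of 18193 genes that reached a log2 of 4 in 4 arrays, by limma (3.58.1, R 4.3.3) fitting 1 mean per group over all 16 arrays and Benjamini-Hochberg adjustment over the genes tested in each comparison. A call is an adjusted p under 0.05, and each adjusted p is limma's. The interaction is the diet difference in knockout minus that in wild type. Members and lists were chosen with earlier results of these data known. Values per array are given for the 12 members with the largest called difference in any of the 4 pairwise comparisons and for any with a called interaction, and for Cpt1a, chosen after its values were seen, and other list genes are named from the 6 with the smallest p in their list. The test was tried on simulated data of 12078 genes, with noise drawn independently for each gene and array and few genes changed. With diet in wild type it recovered 31.9% of 69 changes of 1.5-fold, 73.5% of 68 of 2-fold and 98.4% of 63 of 4-fold. Of 142 calls, 8 were false. In the data 35.6% of genes were called in that comparison, so these rates do not carry over to it. Alternatives covered the filter, floor, scaling, probe set rule, weights, the groups fitted, a replicate block, each array left out and, in part added after seeing the data, the arrays with muscle transcripts left out.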

Additional observations from a re-analysis of the deposited data

Results flagged for a closer look

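Among 144 groups of 4 arrays (36 members in 4 groups), 11 held 1 array far from the other 3, where chance gives about 1 in 20. In KO HFD fat, Cpt2 was 10.102 in replicate 2, against 9.647 to 9.685 in the other arrays. Acot2 was 10.364 in KO HFD replicate 1, against 10.649 to 10.668. Amacr was 6.463 in KO HFD replicate 1, against 7.039 to 7.095. Acot1 was 4.861 in KO HFD replicate 2, against 5.889 to 6.002.

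In WT HFD fat, 3 of the values that stood apart came from replicate 1, where Decr1 was 11.789 (12.323 to 12.424 in the others), Etfa 12.544 (12.689 to 12.7) and Etfb 11.062 (11.653 to 11.74). Acadm was 11.858 in WT HFD replicate 3, against 11.792 to 11.799. In KO LFD fat, Acads was 9.611 in replicate 4 (8.6 to 8.742 in the others) and Abcd2 was 11.747 in replicate 1 (11.28 to 11.346). In WT LFD fat, Abcd2 was 11.549 in replicate 2, against 10.853 to 10.949.

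The diet difference was itself different between knockout and wild type, by the interaction term, in Eci3 (-2.1515), Acot3 (4.30425) and Crat (1.2695) on the log2 scale. For Acot3 only WT LFD arrays reached a log2 of 4, so that its value was fixed by the filter and tests nothing.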

How the results depend on the processing

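Of 46 member calls in the 5 comparisons, 17 were kept under every setting in which they were tested, none was reversed, and 28 other differences were called under another setting only. The 17 include those of Acot3 with diet in wild type, with knockout on the low fat diet and for the interaction, which the filter fixed. Without the 5 arrays with muscle transcripts, calls numbered 6 for diet in wild type, 5 for diet in knockout, 2 for knockout on the low fat diet, 2 for knockout on the high fat diet and 1 for the interaction, and the shares of all genes called were 21.3%, 19.3%, 6.96%, 6.54% and 3.46%, each above the members' 17.1%, 14.3%, 5.71%, 5.71% and 2.86%. Without 6 arrays, WT HFD replicate 4 added after seeing the data, they numbered 5, 5, 3, 1 and 2, with 14.7%, 18.1%, 6.21%, 3.71% and 2.41% of all genes. A fit of only the groups compared gave 5 calls for knockout on the low fat diet. The mean of probe sets gave 7 and array weights 9 for knockout on the high fat diet, and 5 and 7 for the interaction. Leaving out 1 array gave 11 to 20, 6 to 11, 3 to 13, 2 to 5 and 2 to 5 calls in the 5 comparisons in that order, and the interaction had 5 without KO LFD replicate 4. The causes were not tested, beyond the smaller number of arrays. With the replicate block the counts were 17, 10, 8, 3 and 3. Deviations of same-numbered arrays correlated between -0.227 and 0.216, over 0.1 in 6 of 24 pairs. Whether equal numbers share a batch is not in the labels and was not tested. A filter at a log2 of 6 left Acox3 untested. Precision is limited by 4 arrays a group and, for Acot3 and Acot4, by values near or under a log2 of 4.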
